A study of Mus musculus with 2 samples.

Results

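Cytochrome c oxidase, complex IV of the respiratory chain, has several subunits that exist as alternative isoforms encoded by separate nuclear genes. The 10 genes described here are Cox4i1, Cox4i2, Cox6a1, Cox6a2, Cox6b1, Cox6b2, Cox7a1, Cox7a2, Cox7a2l and Cox8a, chosen by gene symbol, and all 10 were found among the 22558 genes of both deposited tables. RNA sequencing was done on cells of breast tumours from FVB mice, an inbred strain, sorted by flow cytometry right after dissociation and without treatment. The first library came from tumour-initiating cells (TIC) and the second from non-tumorigenic cells (NTC). The promoter or transgene behind the tumours, the age of the mice, the number of animals pooled and the sorting antigens are given in none of the sources used. With 1 library per group there is no replicate, so no test, SD or p-value could be computed, and every difference is one between these 2 libraries.

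The enzyme takes electrons from cytochrome c, passes them to oxygen and pumps protons across the inner mitochondrial membrane. Its catalytic core is encoded by the mitochondrial genome, and the nuclear subunits around it stabilise and tune the enzyme. Cox4i1, Cox6a1, Cox6b1, Cox7a2 and Cox8a are the forms that most tissues make, and they are called ubiquitous here. Cox4i2 is known from lung and from cells exposed to low oxygen, Cox6a2 and Cox7a1 from heart and skeletal muscle, and Cox6b2 from testis, and these 4 are called tissue-restricted. Cox7a2l, related to the Cox7a pair, is known as a factor that joins complex III to complex IV in supercomplexes, and it was placed in neither class. Mammary epithelium has an outer basal, contractile layer and an inner luminal layer that makes milk.

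Of the 10 genes, 7 had a promoter in the RefSeq table (build GRCm38.p6), and 3, Cox4i1, Cox4i2 and Cox6a2, had none. The windows ran from 250 bases before to 50 after the start and were searched on both strands. The ETS motif CCGGAA, the core of sites for the respiratory factor NRF-2 (GABP), was in the windows of 4 of the 7, Cox6a1, Cox6b1, Cox7a2 and Cox8a, against 14.9% of all 32851 promoters of that length. These 4 are ubiquitous isoforms, and the windows of Cox6b2, Cox7a1 and Cox7a2l did not hold these letters. The 250 bases before the start are shown for 3 ubiquitous and 2 tissue-restricted isoforms, with the ETS motif or its reverse complement TTCCGG in capitals. As described below, the 3 ubiquitous ones were lower in TIC. The 2 tissue-restricted ones shared no direction, Cox6b2 having its higher listed value in TIC and Cox7a1 in NTC.
Cox6a1: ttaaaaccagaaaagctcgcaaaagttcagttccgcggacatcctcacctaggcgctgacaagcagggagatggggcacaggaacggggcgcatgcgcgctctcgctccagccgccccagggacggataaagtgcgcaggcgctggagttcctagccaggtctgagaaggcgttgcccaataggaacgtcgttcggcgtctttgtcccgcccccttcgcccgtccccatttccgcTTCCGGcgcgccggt
Cox6b1: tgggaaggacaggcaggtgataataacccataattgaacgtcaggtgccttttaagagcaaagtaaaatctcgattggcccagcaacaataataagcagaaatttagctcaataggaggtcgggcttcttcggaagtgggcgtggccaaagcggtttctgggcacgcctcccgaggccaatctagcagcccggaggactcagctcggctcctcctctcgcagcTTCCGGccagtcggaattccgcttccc
Cox7a2: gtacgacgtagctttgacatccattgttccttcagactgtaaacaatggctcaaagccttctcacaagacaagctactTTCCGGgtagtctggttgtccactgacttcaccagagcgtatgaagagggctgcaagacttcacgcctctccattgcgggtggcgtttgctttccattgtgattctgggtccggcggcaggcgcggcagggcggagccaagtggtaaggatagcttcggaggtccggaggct
Cox6b2: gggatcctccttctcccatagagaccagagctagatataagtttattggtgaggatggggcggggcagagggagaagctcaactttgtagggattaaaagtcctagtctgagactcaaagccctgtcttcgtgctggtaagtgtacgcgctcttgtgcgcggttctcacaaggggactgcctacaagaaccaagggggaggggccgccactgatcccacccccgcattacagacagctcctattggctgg
Cox7a1: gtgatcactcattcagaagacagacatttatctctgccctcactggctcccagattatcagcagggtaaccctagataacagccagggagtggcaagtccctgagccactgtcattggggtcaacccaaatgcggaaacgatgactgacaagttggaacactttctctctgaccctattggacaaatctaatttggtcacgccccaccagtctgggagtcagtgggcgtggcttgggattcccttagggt
In that order these lie at chr5:115348959-115349208 (minus strand), chr7:30626115-30626364 (minus), chr9:79759854-79760103 (minus), chr7:4753095-4753344 (minus) and chr7:30183921-30184170 (plus).

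In the Cox6a1 window the match began 15 bases before the start, in Cox6b1 27 bases before and in Cox7a2 172 bases before. Cox8a held 3 matches, 1 across the start itself and 2 after it. The NRF-1 core TGCGCA, a motif of another factor of respiratory genes, was in Cox6a1 alone of the 7, against 7.76% of all promoters. The hypoxia element ACGTG was in Cox7a1 alone (19.6% of all promoters) and the RBPJ motif TGGGAA in Cox6b1 alone (25.6%), while the YY1 motif AAGATGG (6.34%) and the myogenic E-box CAGCTG (16.3%) were in none of the 7. CpG dinucleotides numbered 26 in the 250 bases of Cox6a1, 14 in Cox6b1, 14 in Cox7a2 and 11 in Cox8a. Cox6b2 had 8 and Cox7a1 had 4, and the median over all promoters was 6. Cox7a2l, in neither class and without the ETS motif, had 13. A match of letters describes the window and is not evidence that a factor binds there.

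Levels are given in FPKM, fragments scaled to transcript length and to library size, as deposited, so genes can be compared within a library. Ratios are log2((TIC + 1)/(NTC + 1)), a scale on which differences of low genes appear smaller than they are. The 12004 genes whose mean over both libraries reached 1 FPKM are called measured, and a log2 ratio of 1 or more in size counts as at least 2-fold. Of the 10 isoform genes 9 were measured, and Cox6a2 was not. Low values placed the depth at roughly 21.0 M fragments for the TIC library and 21.6 M for the NTC library, within bounds set by the window of values used. The TIC library was high in 7 of 7 basal mammary markers (summed level 3661 FPKM against 39.4 in NTC) and low in 6 of 6 luminal markers (25.3 against 3285), so each isoform difference also goes with a difference in mammary layer, and the 2 cannot be told apart. In RNA from many cells, fewer cells of a type and less RNA per cell also cannot be told apart.

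The ubiquitous isoforms were all lower in TIC, by 1.48-fold to 2.11-fold on deposited FPKM, while 2 of the 4 tissue-restricted isoforms, Cox4i2 and Cox6b2, were higher in TIC, by 17.4-fold and 7.11-fold. The third, Cox7a1, was detected in NTC and listed at 0 in TIC, and the remaining one, Cox6a2, was listed at 0 in both. Summed, the 5 ubiquitous isoforms had 871.9 FPKM in TIC and 1638 FPKM in NTC, and the 4 tissue-restricted ones 23.9 and 7.56 FPKM. The tissue-restricted genes thus made up 2.67% of the summed level of these 9 genes in TIC and 0.459% in NTC. In both libraries and in each of the 4 pairs the listed value of the ubiquitous isoform was nonetheless far above that of its tissue-restricted counterpart. For Cox6a2 in both libraries and Cox7a1 in TIC this rests on a listed 0, which is not read as absence.

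**Figure D1:**
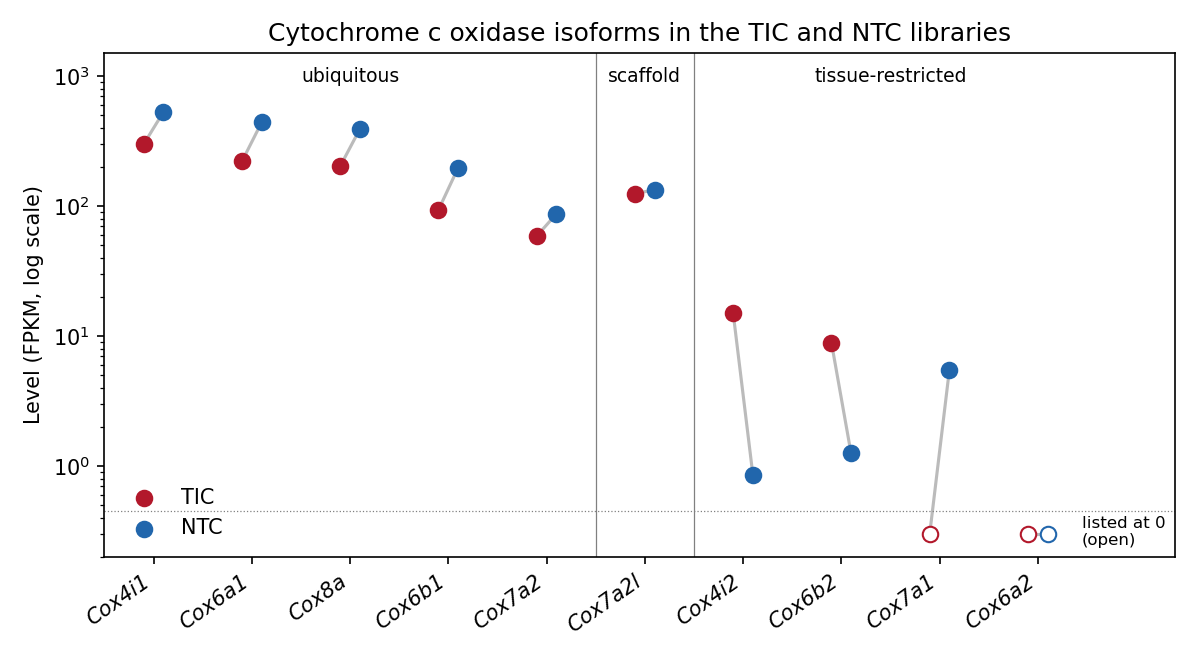
Levels of the 10 genes in FPKM (log axis) in the TIC library (red) and the NTC library (blue), 1 point per library and gene, joined by a grey line, with open circles below the dotted line for genes listed at 0. The 5 ubiquitous isoforms sit between 58.6 and 526.3 FPKM with TIC below NTC, whereas Cox4i2 and Cox6b2 sit lower with TIC above NTC.

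Cox4i1, the ubiquitous form of subunit IV which joins the core early in assembly, had 298.5 FPKM in TIC and 526.3 FPKM in NTC (chromosome 8, 123192190 to 123198109, build mm9). Its log2 ratio was -0.82. It was the highest of the 10 genes in both libraries, at rank 130 of all genes in TIC and rank 76 in NTC. Cox6a1, a small membrane subunit, had 219.8 and 438.4 FPKM (chromosome 5, 115795663 to 115798964), a log2 ratio of -0.99 that fell just short of 2-fold. Cox6b1, which faces the intermembrane space near the cytochrome c site, had 93.2 and 196.3 FPKM (chromosome 7, 31401993 to 31411170). Its log2 ratio of -1.07 made it the 1 ubiquitous isoform at least 2-fold lower in TIC, beside 13.8% of measured genes that were lower by as much.

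Cox8a, the ubiquitous form of a very small subunit, had 201.9 FPKM in TIC and 389.9 FPKM in NTC (chromosome 19, 7289648 to 7292106), with a log2 ratio of -0.95. Cox7a2, the ubiquitous member of the Cox7a pair, had 58.6 and 86.9 FPKM (chromosome 9, 79603048 to 79607660), with a log2 ratio of -0.56. It was the lowest of the 5 in both libraries and the one with the smallest difference. The order of the 5 by level was the same in TIC and NTC, Cox4i1, Cox6a1, Cox8a, Cox6b1 and Cox7a2, with 5.09-fold between the first and the last in TIC and 6.06-fold in NTC. Whether neighbours in this order differ beyond the spread between animals cannot be judged from 1 library each.

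The median log2 ratio of the 5 ubiquitous isoforms was -0.95, against -0.16 over all measured genes, of which 59.1% were lower in TIC by any amount. Ratios below that of Cox6b1 were found in 12.7% of measured genes, below that of Cox4i1 in 18.4% and below that of Cox7a2 in 27.7%, so these differences were not extreme for these libraries. All 5 also had lower values in TIC with ratios centred on the median gene or libraries scaled to the upper quartile, but then none reached 2-fold (Cox6b1 had -0.90 and -0.95).

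Cox7a2l had 124.6 FPKM in TIC and 133.0 FPKM in NTC (chromosome 17, 83901257 to 83913673). Its log2 ratio of -0.09 was the smallest in size among the 8 isoform genes with a ratio, and 53.9% of measured genes had a lower one. The sign flipped to 0.07 with median centring and to 0.03 with upper-quartile scaling, so no direction can be given. Since Cox7a2 was lower in TIC, the level of Cox7a2l relative to Cox7a2 was 2.13 in TIC and 1.53 in NTC.

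Cox4i2, the form of subunit IV associated with low oxygen, had 15.0 FPKM in TIC and 0.861 FPKM in NTC (chromosome 2, 152579909 to 152590773). The log2 ratio was 3.10, and 3.53% of measured genes had a higher one. With the transcript length of GENCODE M21 and the estimated depth these levels rest on about 229 reads in TIC and 13.5 in NTC. It passed the mean of 1 FPKM through the TIC library, so a difference was built into its being measured. Cox4i2 made up 4.78% of the FPKM of Cox4i1 and Cox4i2 together in TIC, and 0.163% in NTC.

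Cox6b2, the testis form of subunit VIb, had 8.90 FPKM in TIC and 1.25 FPKM in NTC (chromosome 7, 4703396 to 4704696), about 103 and 15.0 reads. Its log2 ratio was 2.14, with 6.91% of measured genes higher. Within the Cox6b pair its share was 8.72% in TIC and 0.633% in NTC, the largest share of a tissue-restricted isoform in any of the 4 pairs. A difference of 2-fold or more toward TIC, as Cox4i2 and Cox6b2 had, was seen for 14.6% of all measured genes.

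Cox7a1, the heart and muscle form of subunit VIIa, had 5.45 FPKM in NTC, about 46.3 reads, and a listed value of 0 in TIC (chromosome 7, 30969190 to 30971049). It was 5.90% of the Cox7a1 and Cox7a2 total in NTC, and it was the only one of the 4 tissue-restricted genes with a higher value in NTC. No fold is given against a 0. Its transcript is short, 393 bases. Among genes with transcripts below 500 bases, 3 of 92 with at least 5 FPKM in NTC were listed at 0 in TIC, Cox7a1 being 1 of the 3, and 0 of 91 with at least 5 FPKM in TIC were listed at 0 in NTC. Over all genes these were 40 of 8658 (0.462%) and 43 of 8560 (0.502%). With 3 genes, 1 of them Cox7a1, nothing about transcript length is read from this. The 0 of Cox7a1 is not read as absence.

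Cox6a2, the heart and muscle form of subunit VIa, was listed at 0 in both libraries. Its row covers 32421 bases of chromosome 7 (135317460 to 135349880), the same span as the row of Itgad, an integrin gene also listed at 0 in both, so the value may not stand for Cox6a2 alone. Ndufs5, a complex I subunit that respiring cells need, was listed at 0 in both libraries too, so a listed 0 here and below does not show that a gene was off or low. The muscle form Cox8b and the testis forms Cox8c and Cox7b2, which are outside the 10 genes, were listed at 0 in both libraries as well.

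**Figure D2:**
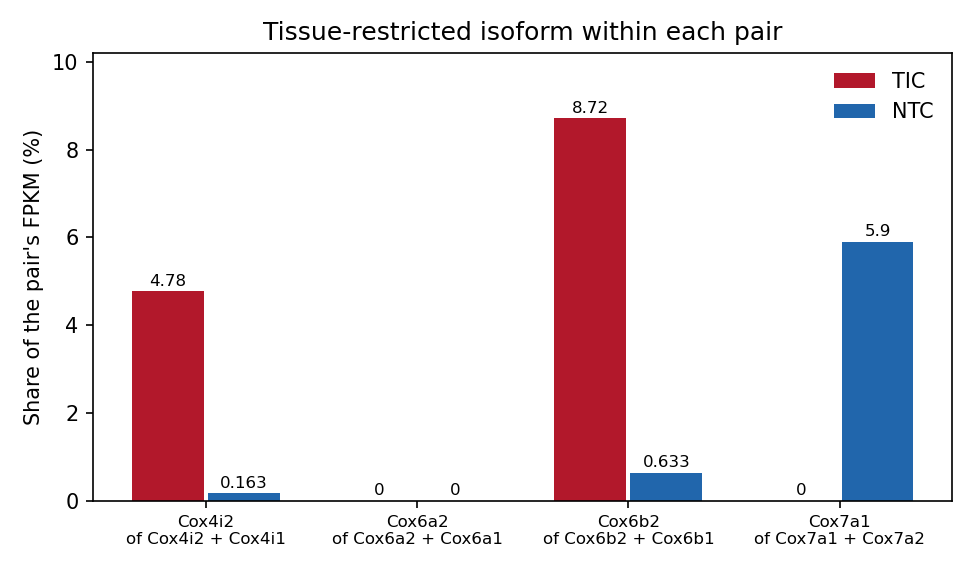
Share of the tissue-restricted isoform in the summed FPKM of its pair (percent, bars from 0) in TIC (red) and NTC (blue), 1 library per bar and no error. Cox4i2 and Cox6b2 have the larger share in TIC (4.78% and 8.72%) and Cox7a1 in NTC (5.90%), and Cox6a2 is at 0 in both.

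The transcripts of paired isoforms shared only short identical runs, which bears on whether reads of one could be counted for the other. The longest run of identical bases was 14 between the transcripts of Cox4i1 and Cox4i2, 14 between Cox6b1 and Cox6b2, 12 between Cox7a2 and Cox7a1, and 12 between Cox6a1 and Cox6a2. Runs of 50 bases shared with a transcript of another gene in GENCODE M21 were found for Cox6a1 and Cox7a2l, each with 1 pseudogene. The values of these 2 genes are less certain for that reason, because how reads that match more than one place were handled is not stated. Only exact matches of 1 transcript per gene to annotated transcripts were searched. Copies with a mismatch or outside the annotation would be missed, so the other genes are not shown to be free of this.

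The 6 nuclear subunits of complex IV outside the isoform pairs were also all lower in TIC, with a median log2 ratio of -0.83. Ndufa4, now counted with complex IV, had 102.7 and 238.2 FPKM, and Cox7c had 58.7 and 119.9 FPKM. These 2 of the 6 were at least 2-fold lower, beside 13.8% of all measured genes. Cox5a, on the matrix side, had 64.3 FPKM in TIC and 121.2 FPKM in NTC, and Cox5b, which binds zinc, had 14.4 and 24.9 FPKM. Cox7b had 49.9 and 75.8 FPKM, and Cox6c had 48.6 and 64.5 FPKM. The range of their log2 ratios, -1.21 to -0.40, took in the range of the ubiquitous isoforms, -1.07 to -0.56.

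Other complexes of the chain had medians nearer to that of all genes. Complex III had -0.57 (9 of 9 lower in TIC), complex I -0.47 (34 of 35 measured, Ndufs5 being at 0 in both) and ATP synthase -0.56 (15 of 15), beside 59.1% of all measured genes lower in TIC. Ndufb7, Ndufb9 and Ndufb4 had the ratios of largest size in complex I (-1.12, -1.04 and -1.04), Uqcrb, Cyc1 and Uqcrfs1 in complex III (-0.92, -0.79 and -0.69), and Atp5g1, Atp5g2 and Atp5d in ATP synthase (-0.99, -0.97 and -0.80). A broad list of genes for the assembly of complex IV and the insertion of its cofactors had a median of -0.29, with 16 of 21 lower in TIC. Of the 21, 0 were at least 2-fold different, beside 14.6% of all measured genes higher and 13.8% lower in TIC. The genes of that list with the ratios of largest size were Pet112l (1.71 and 4.04 FPKM), 1810063B05Rik (6.02 and 11.8 FPKM) and Taco1 (4.28 and 7.53 FPKM). Pet112l, also named Gatb, is not itself an assembly factor. Taco1 encodes an activator of translation of the mitochondrial Cox1 message. How far these lists differ from each other was not tested.

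**Figure D3:**
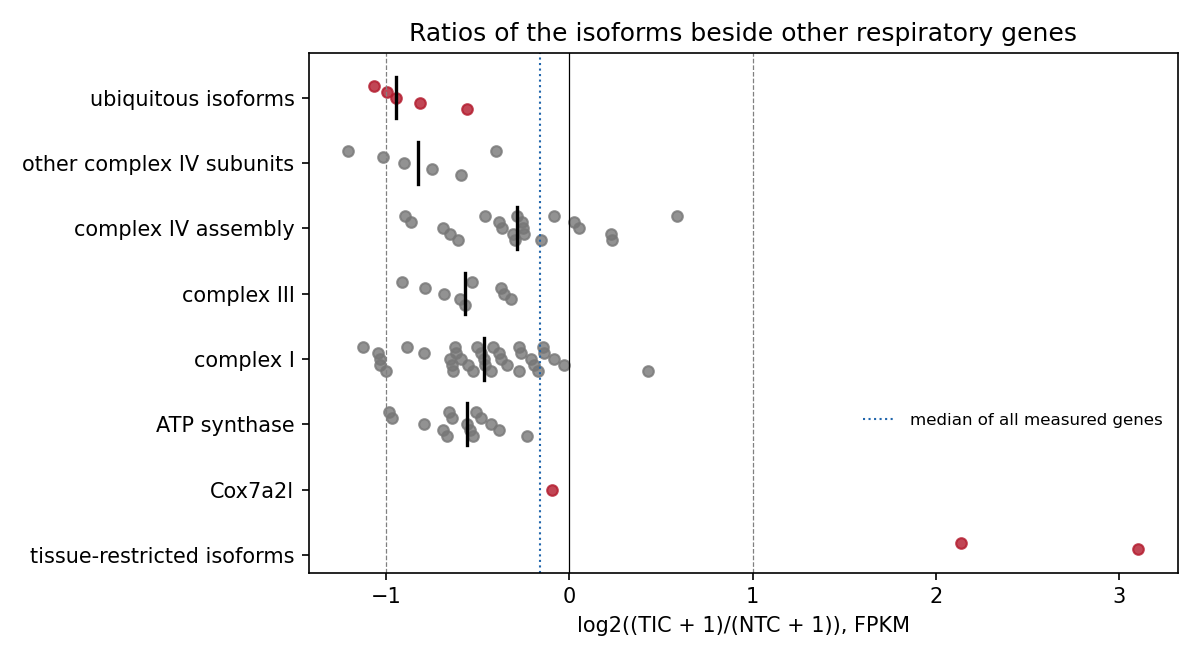
Log2 ratio of TIC to NTC (FPKM + 1) for the isoform genes (red) and other respiratory genes (grey), 1 point per measured gene, with black bars at list medians, dashed lines at 2-fold and a dotted line at the median of all measured genes (-0.16). Ubiquitous isoforms (median -0.95) lie among the other subunits of complex IV (-0.83), and Cox4i2 and Cox6b2 lie to the right at 3.10 and 2.14, while Cox7a1 and Cox6a2 have no ratio and are not drawn.

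Genes known for control of the Cox4 isoforms differed in both directions. Hif1a, the oxygen-regulated factor that can induce Cox4i2 and the protease that removes Cox4i1, had 53.0 FPKM in TIC and 22.6 FPKM in NTC, whereas its relative Epas1 had 3.95 and 11.99 FPKM. Rbpj and Cxxc5, which are known to act at the Cox4i2 promoter, had 12.4 and 6.81 FPKM and 63.9 and 14.4 FPKM. Their partner Chchd2 had 78.4 FPKM in TIC and 109.4 FPKM in NTC, and Lonp1, the protease, had 23.4 and 36.8 FPKM. Of the 6, Cxxc5 and Hif1a reached 2-fold toward TIC and Epas1 toward NTC, beside 14.6% and 13.8% of all measured genes. Acting at a promoter can mean raising or lowering a gene, so no direction for Cox4i2 is read from these 6 levels. The part of these genes in the level of Cox4i2 was not tested.

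**Figure D4:**
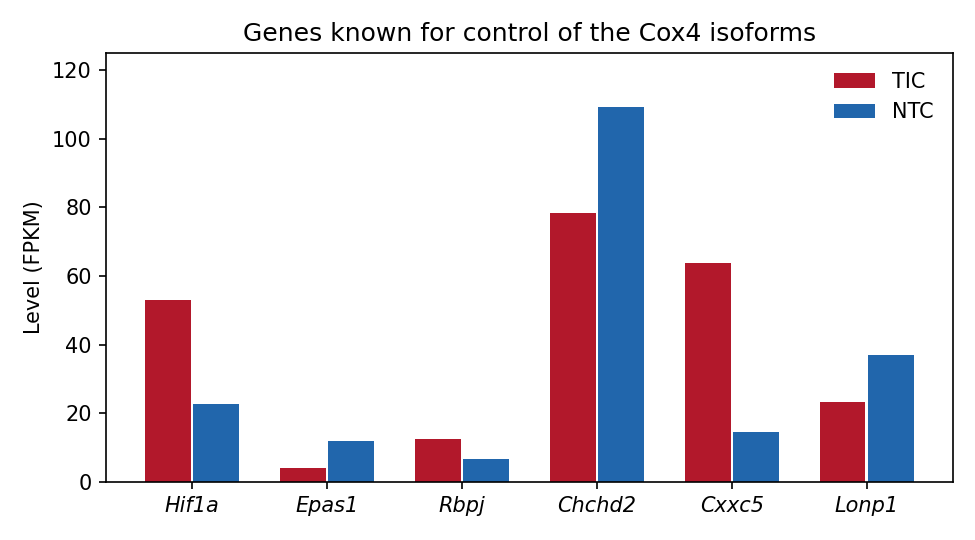
Levels in FPKM (bars from 0) of 6 genes known for control of the Cox4 isoforms in TIC (red) and NTC (blue), 1 library per bar and no error. Hif1a, Rbpj and Cxxc5 are higher in TIC, and Epas1, Chchd2 and Lonp1 are higher in NTC.

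Among 12 transcription factors and coactivators of nuclear respiratory genes, 9 were lower in TIC, with a median log2 ratio of -0.13, near that of all genes. Esrrg, an oestrogen-related receptor, had 0.744 FPKM in TIC and 3.82 FPKM in NTC. It was the only one of the 12 at least 2-fold different, beside 14.6% of all measured genes higher and 13.8% lower in TIC. The coactivators Ppargc1a (7.09 and 3.36 FPKM) and Ppargc1b (3.20 and 6.56 FPKM) differed in opposite directions. Gabpa, which encodes the DNA-binding part of NRF-2, had 22.4 and 24.6 FPKM, and Nrf1 had 13.0 and 9.86 FPKM (both named after their values were seen).

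Of 7 muscle and testis isoforms of other energy proteins, 4 (Cyct, Slc25a31, Pdha2 and Ckmt2) were listed at 0 in both libraries. Slc25a4, the muscle form of the ADP/ATP carrier, had 228.9 FPKM in TIC and 132.4 FPKM in NTC, while the widely expressed Slc25a5 had 168.4 and 265.6 FPKM. Eno3, the muscle enolase, had 1.25 and 3.31 FPKM. Of the 6 widely expressed counterparts, Eno1 reached 2-fold toward TIC (21.8 and 6.73 FPKM) and Ckmt1 toward NTC (8.40 and 21.1 FPKM). Differences of that size toward TIC and NTC were seen for 14.6% and 13.8% of all measured genes.

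Markers of the tissues in which the restricted isoforms are best known are given next, with those listed at 0. Of 13 skeletal muscle markers 1 was measured, Mb (myoglobin), with 2.47 FPKM in TIC and 8.13 FPKM in NTC. The list summed to 3.09 and 10.1 FPKM, and Myh2, Myh4, Myod1, Myog and Tnni2 were at 0 in both. Acta1 had 0.0464 FPKM in TIC and 0.702 in NTC, Mylpf 0.447 and 0.640, and Tnnc2 0.0844 and 0.400. Ckm (0.142), Tnnt3 (0.105) and Actn3 (0.0233) had values in NTC and 0 in TIC, and Myh1 had 0.0405 in TIC and 0 in NTC. These muscle values below 1 FPKM lay mostly toward NTC, but they are too low to read a direction from. The 8 heart markers summed to 3.03 and 2.48 FPKM, led by Tnnt2, with Myh6, Myl7, Actc1, Myl2 and Myl3 at 0 in both. Nppa had 0.489 FPKM in TIC and 0.0662 in NTC, and Tnni3 0.0674 and 0.900. Brown adipocyte markers, given because that cell also makes Cox7a1, summed to 8.27 and 4.31 FPKM, most of it Ppargc1a. Of the others, Ucp1 had 0.259 FPKM in TIC and 0 in NTC, Cidea 0.0485 and 0.789, Dio2 0.791 and 0.135 and Elovl3 0.0850 and 0.0275. These were all below 1 FPKM in both libraries, so no direction is read from them. The 7 adipocyte markers summed to 0.131 and 0.0798 FPKM, with Lep the highest in TIC and Fabp4 in NTC. The part of muscle or fat cells in the Cox7a1 value was not tested.

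The 7 testis germ cell markers summed to 0.312 FPKM in TIC and 0 in NTC, with Tnp2, Prm1, Prm2, Pgk2 and Odf1 at 0 in both and Tnp1 the highest. The part of germ cells in the Cox6b2 value was not tested. Pericytes, the cells around small vessels, are also known for Cox4i2. Of 9 pericyte and vascular smooth muscle markers 5 were measured. Of these, 4 reached 2-fold toward TIC and 1 toward NTC, beside 14.6% and 13.8% of all measured genes. Pdgfrb, Cspg4 and Ndufa4l2 passed the mean of 1 FPKM through the TIC library and Notch3 through the NTC library. A difference was thus built into their being measured. The list summed to 71.8 and 46.3 FPKM. Cspg4 had 8.51 FPKM in TIC and 0.0332 FPKM in NTC, and Pdgfrb had 2.44 and 0.0701 FPKM, both in the direction of Cox4i2. Rgs5 and Higd1b were listed at 0 in both libraries, and Kcnj8 and Abcc9 were at 0 in TIC with 1.16 and 1.04 FPKM in NTC. Mcam was the highest in TIC (30.7 FPKM against 5.86 FPKM in NTC) and Notch3 in NTC (0.181 against 38.0 FPKM). Ndufa4l2, a relative of Ndufa4 that is induced by low oxygen, had 29.9 FPKM in TIC and 0.127 FPKM in NTC. The part of these genes' cells in the Cox4i2 level was not tested.

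Endothelial markers summed to 3.12 FPKM in TIC and 0.351 FPKM in NTC, with Kdr and Pecam1 the highest, and leukocyte markers to 2.52 and 2.23 FPKM, with Lyz2 and Cd68 the highest and Ptprc at 0 in both. Fibroblast markers summed to 10.1 and 0.853 FPKM, of which Pdgfra gave 8.83 and 0.513 FPKM, with Dpt and Fap at 0 in both. Their part in the isoform values was not tested.

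Genes next to the isoforms on the chromosome differed in either direction. Cox4nb begins 177 bases from Cox4i1 by the deposited loci and had 10.8 FPKM in TIC and 9.16 FPKM in NTC, and the level of Cox4i1 was 27.6 times that of Cox4nb in TIC and 57.5 times in NTC. Capns1, 911 bases from Cox7a1, had 423.8 and 349.0 FPKM, whereas Cox7a1 was at 0 in TIC. Fam71e2, 132 bases from Cox6b2, was listed at 0 in both, and Suv420h2 on its other side had 4.32 and 8.92 FPKM. Id1 (0.144 and 2.12 FPKM) and Bcl2l1 (12.5 and 26.7 FPKM), on the sides of Cox4i2, were lower in TIC while Cox4i2 was higher. Triap1 beside Cox6a1 (11.7 and 20.6 FPKM) and Naa40 beside Cox8a (6.43 and 12.7 FPKM) were lower in TIC as those isoforms were. The rest of the nearest genes were Msi1 (18.9 and 0.252 FPKM) beside Cox6a1, Otub1 (46.3 and 42.9) beside Cox8a, Tmem30a (21.6 and 13.5) and Col12a1 (1.30 and 0.499) beside Cox7a2, Eml4 (10.04 and 9.31) and Kcng3 (0.334 and 0) beside Cox7a2l, Irf8 (0.168 and 0.230) beside Cox4i1, Gm5113 (0.849 and 1.17) beside Cox7a1, Upk1a (0 and 0.302) and Etv2 (0 in both) beside Cox6b1, and Itgax (0 and 0.0276) and 9130023H24Rik (4.56 and 2.83) beside Cox6a2.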

How the data were processed

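RNA was extracted from the sorted cells, and 15 ng was amplified to cDNA and made into libraries, per the labels' protocols. Amplification from little RNA can shift the share of reads that a short transcript gets, and PCR copies are not independent molecules. The authors deposited 1 FPKM value per gene and library. Tools listed in the submitters' processing notes, without settings, are Cufflinks, Cuffdiff, TopHat 1.4.0 and CASAVA 1.8.2, with build mm9. The locus heading names a human build, but the spans are of mouse genes. Spans without 1 added equalled the RefSeq gene length for 6724 genes and with 1 added for 448, so 1 was added to each start. Depth was estimated from low values of odorant and pheromone receptor genes (Olfr and Vmn) with loci below 1500 bases, as the median of FPKM times kilobases between 0.035 and 0.065 (0.0476 in TIC, 0.0463 in NTC), and is rough. It rests on 23 genes in TIC and 39 in NTC, and the window bounds the answer. The similar depths are therefore not read as a result, and the read numbers carry the same limit. Reads behind a gene were its FPKM times the length of its first GENCODE M21 coding transcript over that step.

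No count model or test was run, since FPKM are not counts and each group has 1 library. Ratios used a pseudocount of 1 FPKM and a mean of at least 1 FPKM. The calling step was tested on simulated data, with large planted changes and little noise in genes of higher level. That test does not show how calls behave for low genes or with the spread between animals. Alternatives were pseudocounts of 0.1 and 5, no filter, a mean of at least 5, median centring, upper-quartile scaling and, for isoform shares, weighting by coding length or adding 0.1 FPKM. The genes, lists and rules were chosen with earlier results of these data known. Named genes are the 10 isoform genes, 3 short lists in full, up to 3 genes of largest ratio in the other lists, the highest marker of each cell type in each library and the nearest genes on each side. Further markers of a list, among them those at 0, were named after their values were seen. Of the lists, Cox14 and Atp5i were not found under those symbols. Mitochondrially encoded subunits and protein sequences were not used here. Analyses used Python 3.11.15, pandas 2.3.3 and matplotlib 3.10.9.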

Additional observations from a re-analysis of the deposited data

How the results depend on the processing

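No paired analysis was possible because each group has 1 library, and no library could be left out. Settings that only filter genes cannot move a gene's ratio, so those ratios and list medians were left out. Of the 98 other alternative values, 83 kept their direction and side of 2-fold, or for counts and shares stayed within 1.5 times. Some of the 98 could not move either, among them counts of ubiquitous isoforms under the filters and shares of 0 weighted by coding length. The 83 is thus not a measure of how robust the results are. Cox4i2 stayed at least 2-fold higher in TIC under each setting run (log2 ratio 1.77 with a pseudocount of 5 to 3.97 with 0.1), as did Cox6b2 (1.15 to 2.74). Ubiquitous isoforms at least 2-fold lower numbered 0 rather than 1 with median centring or upper-quartile scaling. Tissue-restricted isoforms at least 2-fold lower numbered 1 at first, Cox7a1, a call that rests only on its listed 0, and 0 with a mean of at least 5 FPKM or, in a setting added after seeing the data, without genes listed at 0, since both leave out Cox7a1. Genes at least 2-fold higher and lower were 9.05% and 7.67% with a pseudocount of 5, and 8.50% and 7.79% with no filter. In absolute numbers that pseudocount gave 1086 and 921 against 1749 and 1658, while median centring gave 1952 and 1356. With 0.1 FPKM added, the share of Cox6a2 was 0.0455% in TIC and 0.0228% in NTC, and that of Cox7a1 in TIC was 0.170%. Depth limits the low values, Cox4i2 and Cox6b2 in NTC at about 13.5 and 15.0 reads. Why Cox7a1 in TIC and Cox6a2 in both libraries are listed at 0 was not tested.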
